A study of Homo sapiens with 15 samples.

Results

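The immediate early genes followed here were measured across 15 RNA-seq libraries of T47D breast cancer cells and are the AP-1 genes FOS, FOSB, FOSL1, FOSL2, JUN, JUNB and JUND, the zinc finger genes EGR1 and EGR3, and IER2. They were taken as a fixed list of symbols, 10 of the 60664 gene IDs counted, and each matched 1 Ensembl ID. T47D is an established luminal, oestrogen receptor-positive line. The study set parental cells (PAR, sensitive to 4-OHT) beside a resistant derivative (TR), and its title asks whether inhibition of the fibroblast growth factor receptors (FGFRs) bears on endocrine resistance. Parental cells received vehicle (0.05% DMSO). Resistant cells received vehicle, 1 µM 4-hydroxytamoxifen (4-OHT, the active metabolite of tamoxifen), 5 µM erdafitinib (an inhibitor of the FGFR kinases), or the combination of both drugs. Every group was kept for 48 h in phenol red-free medium with 2% charcoal-stripped serum and 8 µg/mL insulin, itself a growth factor, and then treated for 120 h, and each group held 3 libraries that the design text calls biological replicates.

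Parental cells had been maintained in 5% whole serum and resistant cells in 2% charcoal-stripped serum with 1 µM 4-OHT, both with the same insulin, and seeding took place in these media. Line, maintenance medium and earlier drug exposure therefore cannot be told apart in any comparison of TR with PAR. There was 1 parental and 1 resistant line, so the comparison has no replication over lines. How the 3 replicate cultures were made is not given, and p-values measure only the spread between these samples.

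Immediate early genes are transcribed within minutes of a stimulus because their promoters are already held ready by serum response factor (SRF), its ternary complex factor (TCF) partners such as ELK1 and ELK3, and CREB. ERK phosphorylates the TCFs and thereby links growth factor receptors, FGFRs among them, to FOS and EGR1. FOS and JUN proteins pair through leucine zippers into AP-1, and the subunits differ in how strongly they activate. FOS and FOSB carry activation domains that FOSL1 and FOSL2 lack. JUN is an activator, and JUNB and JUND often act more weakly or as antagonists in the same cells. EGR proteins are zinc finger factors that bind GC-rich sites and are held back by the corepressors NAB1 and NAB2.

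The 3 promoters below were chosen by outcome: FOS and FOSB were lower in the resistant line, and EGR1 was higher. Each is the 240-base window from 250 to 11 bases upstream of the RefSeq start, 5′ to 3′ on the gene's own strand (the plus strand for all 3), from build GRCh38.p14. FOS spans chr14:75278578-75278817, FOSB spans chr19:45467746-45467985 and EGR1 spans chr5:138465229-138465468. Capitals mark a CArG box (the SRF motif), the CREB core TGACG on either strand (CGTCA on the other), and the TATA box TATAAA.
FOS: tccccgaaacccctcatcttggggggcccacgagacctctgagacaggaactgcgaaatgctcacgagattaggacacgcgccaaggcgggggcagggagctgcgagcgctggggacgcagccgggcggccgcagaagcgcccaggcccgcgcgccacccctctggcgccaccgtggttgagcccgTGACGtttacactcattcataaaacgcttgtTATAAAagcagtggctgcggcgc
FOSB: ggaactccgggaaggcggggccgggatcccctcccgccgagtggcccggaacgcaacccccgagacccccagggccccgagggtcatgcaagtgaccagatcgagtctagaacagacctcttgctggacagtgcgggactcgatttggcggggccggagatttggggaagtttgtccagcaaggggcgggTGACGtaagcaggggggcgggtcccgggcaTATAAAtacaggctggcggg
EGR1: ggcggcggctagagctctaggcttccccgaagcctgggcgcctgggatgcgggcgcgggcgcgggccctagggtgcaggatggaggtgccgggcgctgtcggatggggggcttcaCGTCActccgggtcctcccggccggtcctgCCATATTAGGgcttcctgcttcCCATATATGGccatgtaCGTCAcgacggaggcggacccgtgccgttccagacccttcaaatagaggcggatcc
FOS and FOSB both place a TGACG core shortly before a TATAAA, at 64 to 60 and 33 to 28 bases upstream in FOS and at 60 to 56 and 30 to 25 bases upstream in FOSB. EGR1 instead holds 2 CArG boxes, at 105 to 96 and 83 to 74 bases upstream, and 2 CGTCA cores, at 135 to 131 and 66 to 62 bases upstream, with no TATAAA. The well-known serum response element of FOS lies further upstream than this window. Promoter entries matched 8 of the 10 genes, FOS, FOSB, FOSL2, JUN, JUNB, JUND, EGR1 and IER2. A CREB core (TGACG or CGTCA) stood in 8 of these 8 windows, against 20.46% of 35116 RefSeq windows of the same length. The 8 windows held 62.5% to 73.75% GC, and the shares over all windows were not matched for GC content. The CArG box stood only in EGR1 among the 8, against 1.128% of all windows, and TATAAA stood in FOS, FOSB and JUNB, against 6.709%. Of the other motifs searched on both strands, the full CRE (TGACGTCA), which contains the core, stood only in JUND (1.572% of all windows), and the ETS core CCGGAA stood in FOSB and IER2 (13.5%). The GC box GGGCGG stood in 6 of the 8, all but JUNB and EGR1 (41.37%). The AP-1 site (TGACTCA or TGAGTCA, 4.106%), the EGR site (GCGNGGGCG with T or G at N, 5.095%) and the oestrogen response element (0.03702%) matched none of the 8 windows. Sites that vary from these letters were not searched, so their absence is not shown. These are matches of letters and not measured binding. FOSL2 and IER2, also higher in the resistant line, held no CArG box. JUN was lower with no TATAAA, and JUNB held TATAAA and was not called. A link between motif and direction was not tested.

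Total counts ran from 6946684 to 28717380, and the median library had 22304029. PAR 2 (6946684) and TR 4-OHT 2 (8990899) are the 2 shallowest, and results that rest on them are given with and without them. Levels below are CPM (counts scaled to library size) after TMM scaling unless stated, as mean ± SD of 3 libraries, and the floor used here, 3 counts over the 3 libraries of a group, equalled 0.0382 to 0.0507 CPM in the TR groups. A gene was called when edgeR's quasi-likelihood test gave a Benjamini-Hochberg adjusted p under 0.05 over the 16210 genes that passed the filter on low counts. The 8 luminal markers (among them ESR1, GATA3 and KRT8) were above 0 in every group, with summed levels of 2846 to 4687 CPM. In TR vehicle against PAR vehicle 2 of these 8 were called higher and 2 lower, where 35.9% of all genes tested were called. Leukocyte, endothelial and erythroid markers summed to at most 1.40, 0.0516 and 0.0838 CPM. The 4 basal markers summed to 0 to 1.59 CPM in PAR, where 3 of the 4 were at 0, and to 15.3 to 35.4 CPM in TR, where 1 of the 4 was at 0 in each group. The 5 fibroblast markers summed to 11.9 to 28.2 CPM in PAR, with 4 of the 5 at 0, and to 13.3 to 37.6 CPM in TR. Among them COL3A1 reached the filter's minimum in 0 PAR libraries and in 3 of TR vehicle. Of the 4 basal markers only TP63 passed the filter, so that their sum in TR stands mainly for 1 gene. The basal sum and COL3A1 thus move with every TR against PAR difference below, and their part in those differences was not tested. In bulk RNA, fewer cells expressing a gene and less of its RNA per cell cannot be told apart.

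FOS, FOSB and EGR3 were nearly silent in the resistant line, JUN was 1.96-fold lower, and FOSL2, EGR1 and IER2 were modestly higher. Of the 10 genes, 9 passed the filter, and FOSL1 did not. FOS and EGR3 passed only through their parental level, so that they had to differ. EGR1 reached the filter's minimum in 2 PAR libraries and in 12 TR libraries, and so passed only through TR. Values of FOS, EGR3 and EGR1 against PAR are therefore given with no p, and the count of calls is not read as support. In TR vehicle against PAR vehicle, 4 of the 9 were called lower, 3 higher and 2 not called, where 35.9% of all genes tested were called (16% lower and 19.9% higher). Without the 2 shallowest libraries, 6 of the 9 were called, and the call lost was that of IER2.

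**Figure D1:**
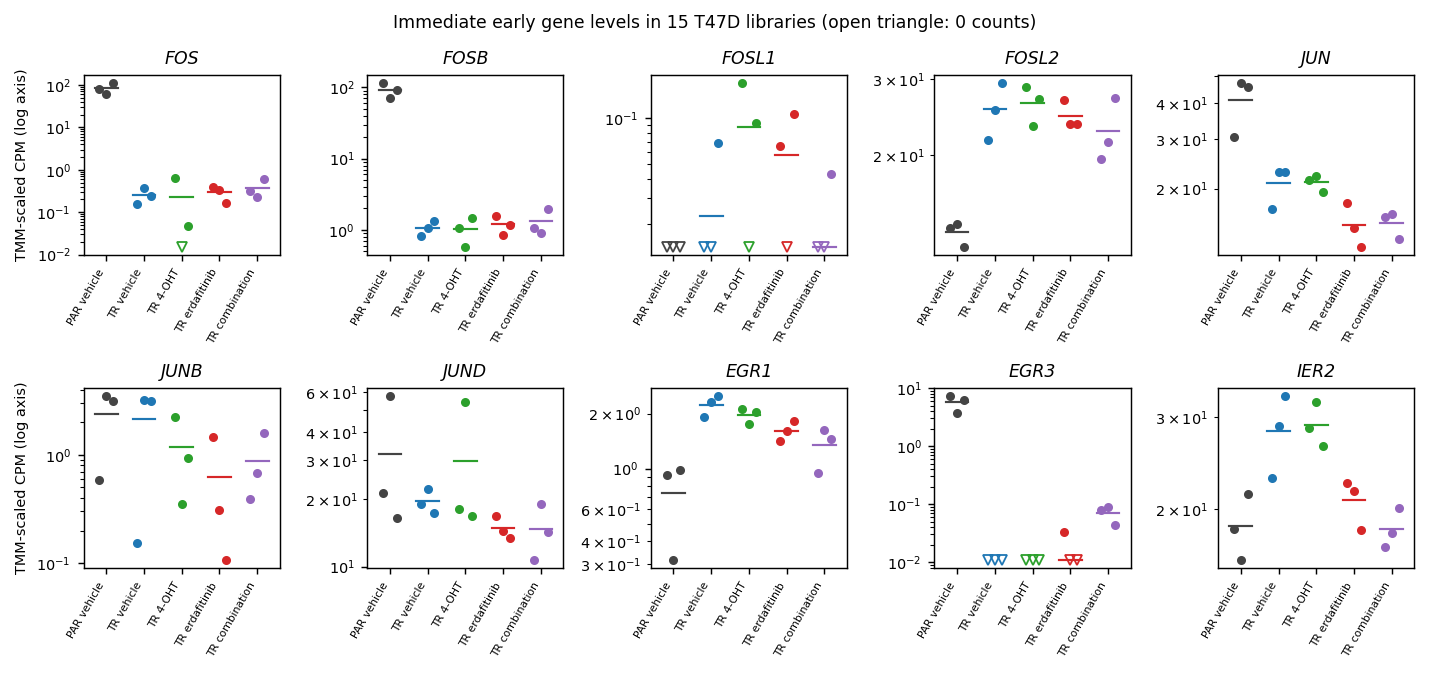
TMM-scaled CPM (log axis, a separate scale for each gene) in each of the 15 libraries, by group. Points are libraries, bars are group means and open triangles are libraries with 0 counts. FOS, FOSB and EGR3 in the 12 TR libraries lie far below the 3 PAR libraries, FOSL2 lies above them, and JUNB spreads widely within every group.

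FOS (ENSG00000170345, GRCh38 chr14:75278826-75282230, 3 merged exon blocks) encodes the founding AP-1 activator subunit. Its level was 80.7, 59.5 and 113 CPM in PAR and 0.155, 0.374 and 0.239 CPM in TR vehicle. The lowest parental library was far above the highest resistant one, and all 12 TR libraries lay between 0 and 0.653 CPM. With 20 counts in TR vehicle against 4435 in PAR, FOS was 366-fold higher in PAR by scaled counts (95% exact counting interval 236 to 599).

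FOSB (ENSG00000125740, chr19:45467995-45475179, 3 merged exon blocks), the other strong activator of the family, behaved alike. It stood at 116, 70.8 and 91.8 CPM in PAR and at 0.825, 1.05 and 1.33 CPM in TR vehicle. The change was −6.42 log2 units (SE 0.40, edgeR adjusted p = 2.82e-08), and PAR was 86.6-fold higher by scaled counts (69.7 to 109). FOSB remained measurable in every TR library, from 0.584 to 1.97 CPM, and its mean per exon length was above that of FOS in all 4 TR groups, with ranges that overlapped in TR 4-OHT and TR combination.

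FOSL2 (ENSG00000075426, chr2:28392448-28417317, 7 merged exon blocks), a FOS relative without the strong activation domain, moved the other way. Its 13.5, 13.8 and 12.2 CPM in PAR compare with 21.7, 25.5 and 29.5 CPM in TR vehicle, and all 12 TR libraries (19.5 to 29.5 CPM) lay above all 3 parental ones. The rise was 0.96 log2 units (SE 0.18, edgeR adjusted p = 0.000805). FOSL1 (ENSG00000175592, chr11:65892049-65900573), the remaining relative and an ERK-dependent gene in many carcinomas, was not detected in PAR at 0 counts. It reached 2, 7, 4 and 1 counts over the TR vehicle, 4-OHT, erdafitinib and combination groups, too few to compare.

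JUN (ENSG00000177606, chr1:58776845-58784048, 4 merged exon blocks), 1 of the JUN family genes whose proteins pair with FOS proteins, was lower in the resistant line. Levels were 30.3, 47.3 and 45.7 CPM in PAR and 16.9, 22.9 and 23.0 CPM in TR vehicle, without overlap. JUN fell by 0.97 on the log2 scale (SE 0.21, edgeR adjusted p = 0.00226), and every one of the 12 TR libraries (12.5 to 23.0 CPM) was below the lowest parental one.

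JUNB (ENSG00000171223, chr19:12791486-12793315, 1 exon block) and JUND (ENSG00000130522, chr19:18279694-18281622, 1 exon block) were not called. JUNB stood at 0.587, 3.49 and 3.13 CPM in PAR and at 0.155, 3.21 and 3.11 CPM in TR vehicle. One library of each group was thus low and the other 2 were high, and the difference of −0.12 log2 units has an interval of −2.20 to 1.96 (edgeR adjusted p = 0.938). That interval holds changes of several-fold in either direction. JUND stood at 21.2, 57.8 and 16.5 CPM in PAR and at 19.0, 22.3 and 17.4 CPM in TR vehicle. The estimate of −0.69 log2 units (95% interval −1.70 to 0.33, edgeR adjusted p = 0.283) came from PAR 2: without PAR 2 it was 0.06.

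EGR1 and EGR3 went in opposite directions. EGR1 (ENSG00000120738, chr5:138465479-138469303, 2 merged exon blocks), the ERK-responsive member, stood at 0.922, 0.317 and 0.982 CPM in PAR and at 1.91, 2.32 and 2.49 CPM in TR vehicle. It was low in both lines but did not overlap, and the rise was 1.49 log2 units (SE 0.37). EGR1 reached the filter's minimum in 2 PAR libraries and in 3 of TR vehicle. It passed the filter only through TR, so its call is not read as support. With only these 2 groups in the fit, the call was lost at nearly the same size (1.48). EGR3 (ENSG00000179388, chr8:22687659-22693480, 5 merged exon blocks), known as an oestrogen-induced gene in breast cancer cells, stood at 7.29, 3.65 and 6.18 CPM in PAR. All 3 TR vehicle libraries had 0 counts. Against a floor of 3 counts over the group, the 280 counts in PAR make EGR3 at least 154-fold lower in TR vehicle.

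IER2 (ENSG00000160888, chr19:13150411-13154911, 2 merged exon blocks), which encodes a small nuclear protein induced by serum, stood at 18.4, 16.0 and 21.4 CPM in PAR and at 23.0, 28.8 and 32.9 CPM in TR vehicle. The groups did not overlap, and the rise was 0.60 log2 units (SE 0.18, edgeR adjusted p = 0.0181). This call is fragile: it was lost without PAR 2 (0.51, edgeR adjusted p = 0.0626), without TR vehicle 3 (0.49, edgeR adjusted p = 0.0848), with only the 2 groups in the fit (0.57, edgeR adjusted p = 0.149) and without a filter on low counts (0.67, edgeR adjusted p = 0.0509). Groups without overlap were common in this comparison, at 18.5% of genes tested in the lower direction and 22.5% in the higher.

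**Figure D2:**
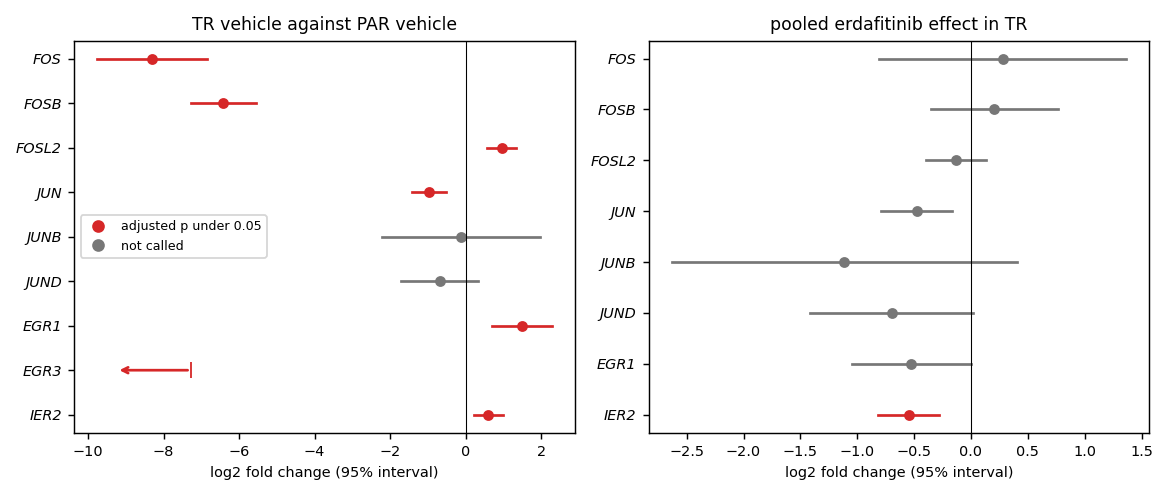
Log2 fold changes with 95% intervals from edgeR for the genes that passed the filter, in TR vehicle against PAR vehicle (left) and for the mean effect of erdafitinib in TR (right). Red marks an adjusted p under 0.05, and the EGR3 arrow starts at its bound of 154-fold. FOS and EGR3 had to differ on the left and EGR1 passed the filter only through TR, so their colour there is not read as support. On the left FOS and FOSB stand far to the left of JUN, while FOSL2, EGR1 and IER2 lie to the right of 0, and on the right IER2 alone is red.

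The makeup of AP-1 transcripts changed with these shifts. Levels of different genes are compared here as CPM per kb of exon. In PAR the order was FOS (26.4 ± 8.39), FOSB (16.7 ± 4.09), JUND (16.5 ± 11.7), JUN (11.3 ± 2.59), IER2 (6.04 ± 0.870), FOSL2 (1.84 ± 0.118), JUNB (1.31 ± 0.865), EGR3 (1.13 ± 0.371) and EGR1 (0.236 ± 0.117), with FOSL1 at 0. The ranges of the first 4 overlapped from each to the next, as did those of FOSL2, JUNB and EGR3, so those orders are not resolved. In TR vehicle the order was JUND (10.1 ± 1.31), IER2 (9.17 ± 1.62), JUN (5.78 ± 0.961), FOSL2 (3.57 ± 0.545), JUNB (1.18 ± 0.949), EGR1 (0.714 ± 0.0960), FOSB (0.192 ± 0.0459) and FOS (0.0803 ± 0.0347). Here the ranges overlapped between JUND and IER2 and between JUNB and EGR1, and FOSL1 and EGR3 were at or under the floor. FOS thus went from the highest mean of the list to the lowest of those above the floor.

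Within the FOS family, FOS made up 58.2 ± 6.94% of the summed level per exon length in PAR, FOSB 37.5 ± 6.34% and FOSL2 4.29 ± 1.34% (SD, n = 3 each). In TR vehicle FOSL2 made up 92.7 ± 1.02%, FOSB 4.96% and FOS 2.07%. The FOSL2 share was 92.6% with 4-OHT, 91.1% with erdafitinib and 90.0% with the combination. The family's summed level was 45.0 ± 10.5 CPM per kb in PAR and 3.85 ± 0.622 in TR vehicle. These shares and the sum did not overlap between the groups. All of them contain the level of FOS, which had to differ, so they are given with no p. For the JUN family a change in makeup was not resolved: JUN held 42.2 ± 13.0% in PAR and 33.8 ± 2.95% in TR vehicle, JUND 53.3 ± 14.8% and 59.7 ± 7.34%, and JUNB 4.45% and 6.50%. The JUN share ran from 29.1% to 55.1% among the PAR libraries. Two-sided exact permutation tests, where 3 libraries against 3 allow no p under 0.1, gave p = 0.4 for the JUN share, 0.6 for JUND and 0.6 for JUNB. The direction for JUND turned to −1.55 percentage points without PAR 3. Over both families the sum was 74.2 ± 5.59 CPM per kb in PAR and 20.9 ± 2.90 in TR vehicle. Of EGR1 and EGR3 together, EGR3 held 83.5 ± 4.05% in PAR and 0 in TR vehicle. Shares of RNA say nothing of the proteins or dimers formed.

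**Figure D3:**
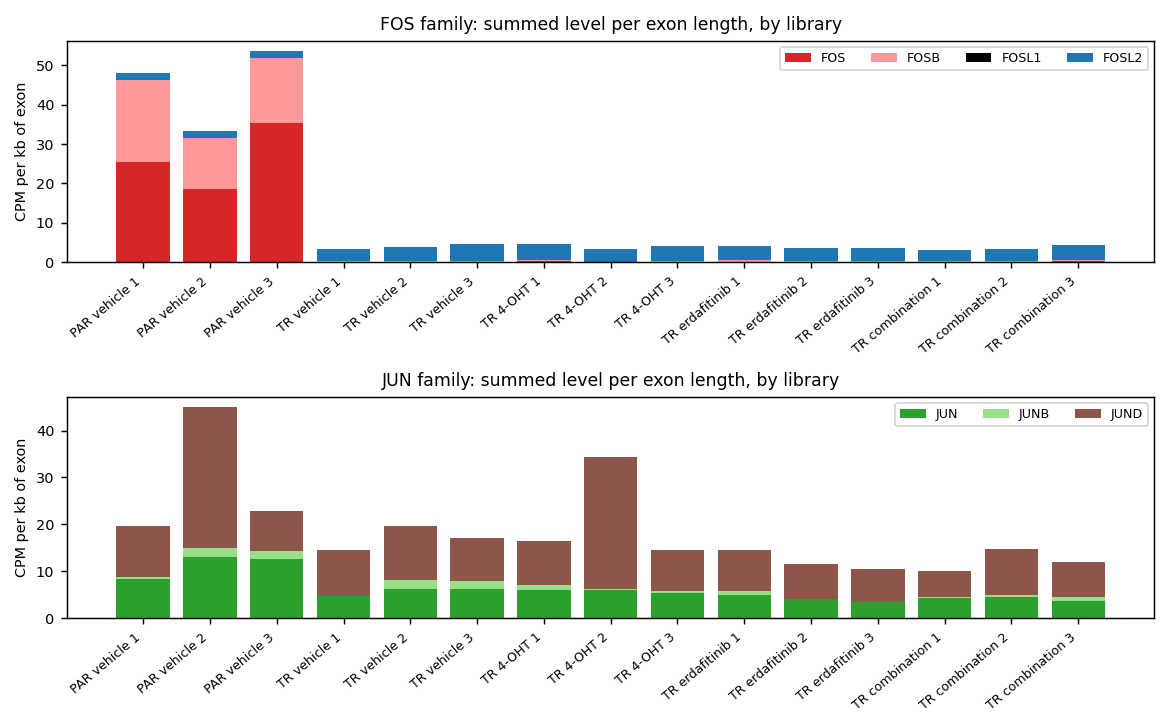
Summed level in CPM per kb of exon for the FOS family (top) and the JUN family (bottom) in each library, with stacked bars for the genes. The tall FOS and FOSB bars of the 3 PAR libraries are missing from the 12 TR libraries, where FOSL2 is nearly all of the bar, and JUND is tall in PAR 2 and TR 4-OHT 2.

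Neither drug brought FOS, FOSB or EGR3 back to the parental level. By scaled counts over the group, FOS in PAR was 287-fold higher than in TR 4-OHT (95% counting interval 186 to 470), 305-fold higher than in TR erdafitinib (206 to 471) and 254-fold higher than in TR combination (174 to 386). Of the 20 FOS counts in TR 4-OHT, 19 came from library 1, and without that library 1 count was left, a ratio of 2918 (523 to 115269). For FOSB the ratios were 82.9 (65.3 to 107), 78.8 (64.3 to 97.6) and 72.5 (59.1 to 90.1). These ratios share the same 3 parental libraries and carry counting error only. EGR3 had 0 counts in TR 4-OHT, at least 121-fold lower than in PAR. TR erdafitinib held 1 EGR3 count, a ratio of 481 with an interval of 85.6 to 19057, and TR combination held 5 counts, a ratio of 86.7 (36.7 to 269). The EGR3 counts of the combination came from all 3 of its libraries, at 0.0788, 0.0908 and 0.0428 CPM, from 2, 2 and 1 counts.

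Giving 4-OHT back to resistant cells changed none of the genes beyond the spread. In TR 4-OHT against TR vehicle, 0 of 9 were called and 0% of all genes were called by edgeR. At an unadjusted p under 0.05 there were 127 genes, none of them on the list, and DESeq2 called 0. Log2 fold changes ran from −0.80 for JUNB to 0.59 for JUND, leaving out EGR3 with 0 counts on both sides, and their 95% intervals reached from −2.89 to 1.80. FOS stood at 0.653, 0 and 0.0464 CPM with 4-OHT, a range that holds that of TR vehicle. JUND stood at 18.04, 54.1 and 16.8 CPM, high in the shallow library TR 4-OHT 2, and without that library its log2 fold change was −0.17. For JUN, FOSL2 and IER2 the intervals were narrow, the widest from −0.44 to 0.45 for JUN, so that changes beyond that size lie outside all 3 intervals. Adding 4-OHT to erdafitinib called 0 of 9 genes, where 0% of all genes were called (104 at an unadjusted p under 0.05, and 16 by DESeq2). Log2 fold changes ran from −0.26 to 0.44, leaving out EGR3 with 1 count in TR erdafitinib and 5 in TR combination.

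With erdafitinib alone, 0 of 9 genes were called in TR erdafitinib against TR vehicle, where 0.0925% of all genes were called. IER2 and JUN had the smallest unadjusted p (0.0268 and 0.0345). IER2 stood at 22.5, 21.6 and 18.3 CPM against 23.0, 28.8 and 32.9 CPM in TR vehicle, a difference of −0.44 log2 units (95% interval −0.82 to −0.06, edgeR adjusted p = 0.969). JUN stood at 17.8, 14.5 and 12.5 CPM, with a difference of −0.49 (95% interval −0.93 to −0.04, edgeR adjusted p = 1). EGR1, at 1.41, 1.60 and 1.82 CPM, was below all 3 TR vehicle libraries, with a difference of −0.48 (−1.21 to 0.25). Groups did not overlap for IER2, EGR1 and JUND, all lower, which held for 5.56% of all genes in that direction. FOS and FOSB differed by 0.24 (−1.29 to 1.77) and 0.16 (−0.62 to 0.94), and FOSL2 by −0.05 (−0.42 to 0.32).

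Erdafitinib was also given on top of 4-OHT, the pair of drugs named by the study. In TR combination against TR 4-OHT, 0 of 9 genes were called, where 0.642% of all genes were called. IER2 stood at 17.0, 18.02 and 20.1 CPM against 28.6, 32.0 and 26.4 CPM, without overlap (as for 7.43% of all genes in that direction), and the difference of −0.66 log2 units (SE 0.18) missed the threshold (edgeR adjusted p = 0.165). DESeq2 called it (adjusted p = 0.0233), as did edgeR when the main axis of spread within groups entered as a covariate (adjusted p = 0.00761). JUN differed by −0.47 (edgeR adjusted p = 0.545), at 16.0, 16.3 and 13.3 CPM against 21.5, 22.1 and 19.5 CPM. JUND differed by −1.002 (edgeR adjusted p = 0.587), and by −0.25 without TR 4-OHT 2. EGR1 was 0.945, 1.63 and 1.45 CPM against 2.13, 1.75 and 2.04 CPM, with a difference of −0.57 (95% interval −1.31 to 0.18). FOS and FOSB differed by 0.32 (−1.23 to 1.86) and 0.25 (−0.55 to 1.05).

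Taking the 6 libraries with erdafitinib against the 6 without it, IER2 was the 1 gene of 9 called, where 1.71% of all genes were called (0.938% lower). It ranged from 17.0 to 22.5 CPM (median 19.2) with erdafitinib and from 23.0 to 32.9 CPM (median 28.7) without, so that all 6 lay below all 6, as for 1.77% of all genes. IER2 fell by 0.55 on the log2 scale (SE 0.13, edgeR adjusted p = 0.0428). The call stands close to the threshold: it was lost in 11 of the 12 fits that left out 1 library, with log2 fold changes of −0.61 to −0.49, and held only without TR vehicle 1. The basal markers moved with erdafitinib too, summing to 15.3 to 25.9 CPM with it and 28.6 to 35.4 CPM without. Their 1 tested gene, TP63, was not called (−0.58 log2 units, edgeR adjusted p = 0.393), while of 2 tested fibroblast markers COL3A1 fell by 1.89 (edgeR adjusted p = 0.00502). The part of these markers in the erdafitinib differences of IER2 and of the genes below was not tested. Of the variance of IER2 within groups, 53.7% lay on the main axis of that spread, described below. JUN differed by −0.48 (SE 0.15, edgeR adjusted p = 0.154), with 5 of 6 libraries below the lowest library without erdafitinib. EGR1 differed by −0.52 (SE 0.24, edgeR adjusted p = 0.427), also with 5 of 6 below, and JUND by −0.70 (SE 0.33, edgeR adjusted p = 0.451), with 4 of 6 below. FOSL2 differed by −0.13 (95% interval −0.40 to 0.13), FOSB by 0.21 (−0.35 to 0.76), FOS by 0.28 (−0.81 to 1.37) and JUNB by −1.11 (−2.63 to 0.40). Whether the erdafitinib effect depended on 4-OHT was tested by an interaction term, which called 0 of 9 genes and 0% of all genes (134 at an unadjusted p under 0.05, and 1 by DESeq2).

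JUNB and JUND are GC-rich genes of a single exon (64.9% and 69.7% GC), and their spread within groups went with different properties of the libraries. A principal component of the deviations from the group means held 49.5% of all variance within groups, and the loading of genes on it rose with their GC content (Spearman 0.713 across genes, which are not independent). JUNB varied more within groups than 99.1% of genes. Of that variance 49.7% lay on this axis, near the 49.5% of all variance, and JUNB contributed to the axis as 1 of the 16210 genes. In the vehicle group of TR, library 1 at 0.155 CPM and library 2 at 3.21 CPM had scores of −0.57 and 0.29 on this axis. JUND, though richer in GC, had a slope of −0.77 on this axis (percentile 3.73 of genes), against the trend with GC content. It was high in the 2 shallowest libraries instead: PAR 2 and TR 4-OHT 2 stood at 57.8 and 54.1 CPM, and the other 13 at 10.7 to 22.3 CPM. A relation with depth rests on these 2 libraries, which could share another property. FOSL2, JUN and IER2 varied less within groups than most genes, at percentiles 8.95, 22.1 and 10.7 of the within-group SD. The part of these library properties in the JUNB and JUND values was not tested beyond leaving libraries out.

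**Figure D4:**
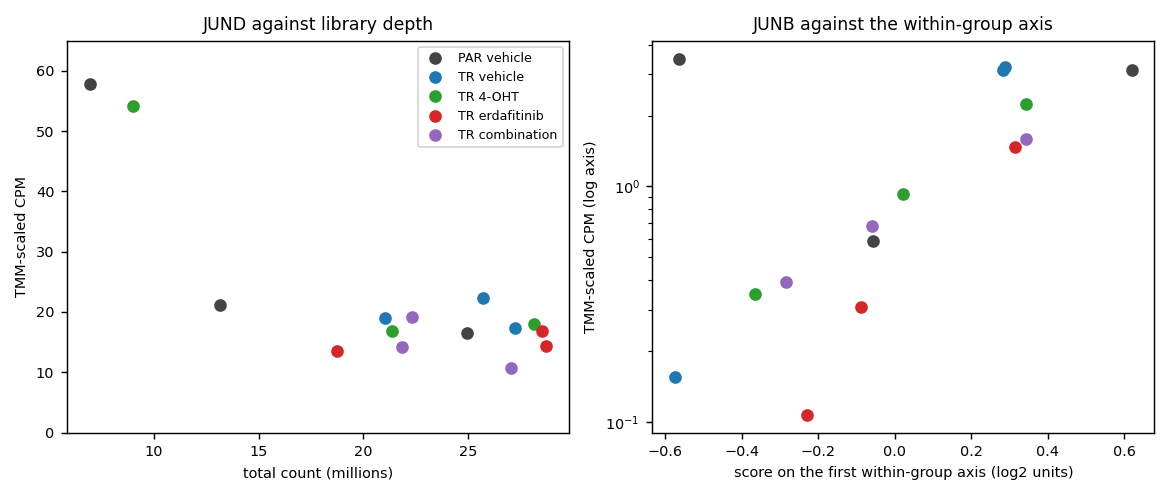
Left, JUND level (TMM-scaled CPM) against the total count of each library. Right, JUNB level (log axis) against the library's score on the first axis of variation within groups. The 2 libraries with fewest counts have JUND at 57.8 and 54.1 CPM, and JUNB is low at negative and high at positive scores, except in PAR 2 (3.49 CPM at a score of −0.56).

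On a wider list of immediate early genes, more were called lower than higher in the resistant line. Of 35 on a list of further serum- and growth factor-induced genes, 31 were tested: 16 fell, 5 rose and 10 were not called in TR vehicle against PAR vehicle, where 16% of all genes were called lower and 19.9% higher, with a median of −0.73 against 0.07 over all genes. KLF4, a zinc finger factor, fell by 3.98 on the log2 scale (15.6 ± 3.88 to 0.980 ± 0.337 CPM, edgeR adjusted p = 5.62e-06). DUSP1, a phosphatase that inactivates MAP kinases, fell by 3.07 (26.3 ± 10.4 to 3.13 ± 0.521 CPM, edgeR adjusted p = 1.50e-05), and ATF3, a bZIP partner of JUN, fell by 2.05 (35.8 ± 6.05 to 8.62 ± 1.84 CPM, edgeR adjusted p = 2.20e-05). BTG2, an antiproliferative p53 target, rose by 3.10 (4.13 ± 0.844 to 36.0 ± 2.08 CPM, edgeR adjusted p = 1.61e-08). PHLDA1 rose by 2.38 (36.6 ± 2.21 to 190 ± 31.7 CPM, edgeR adjusted p = 7.73e-08). These named genes reached the filter's minimum in all 3 libraries of both groups. How many of the 16 passed the filter only through PAR was not counted, so their number is not read as support.

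**Figure D5:**
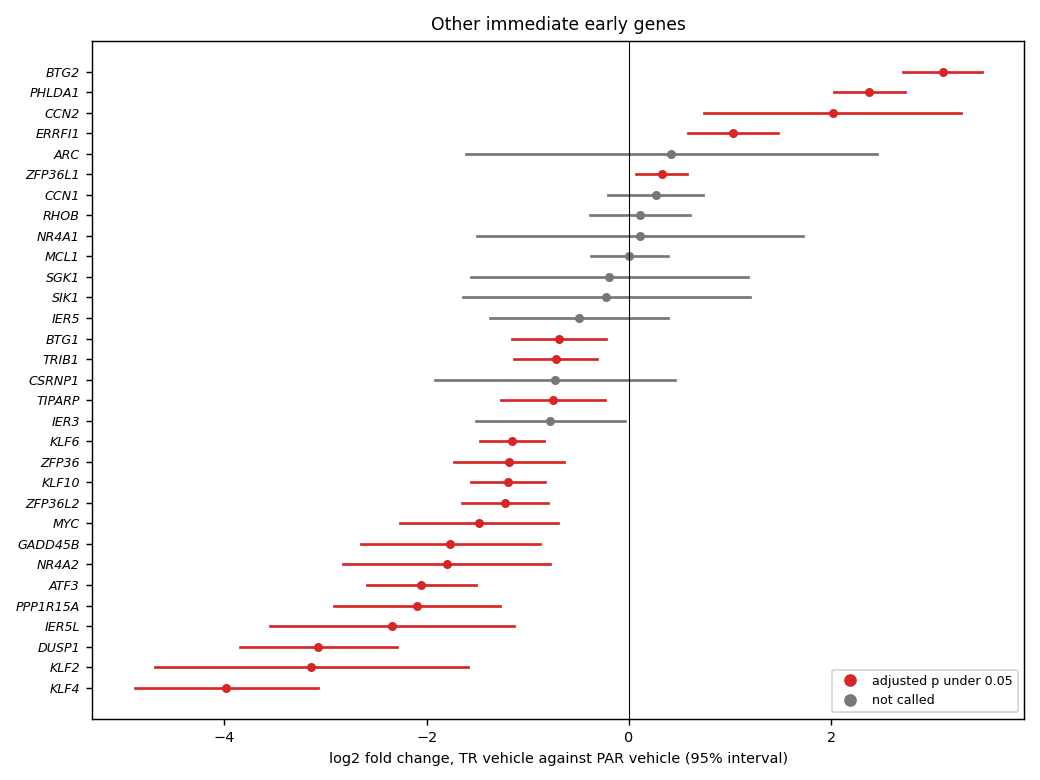
Log2 fold changes with 95% intervals from edgeR for the 31 tested genes of the list of other immediate early genes, TR vehicle against PAR vehicle, in order of size. Red marks an adjusted p under 0.05. BTG2 at 3.10 and KLF4 at −3.98 are the extremes, with 16 red points left of 0 and 5 right of it.

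Among the regulators of these promoters, 2 of 9 SRF, TCF, MRTF, FHL2 and CREB genes rose and 1 fell, a share near the 35.9% of all genes called, so that it is no result about the list. ELK3, a TCF that represses until it is phosphorylated, rose by 2.63 log2 units (2.73 ± 0.793 to 17.1 ± 1.58 CPM, edgeR adjusted p = 7.91e-07). CREM, a CREB relative with repressor isoforms, rose by 1.70 (edgeR adjusted p = 0.000461), and CREB1 fell by 1.11 (108 ± 18.4 to 50.1 ± 17.1 CPM, edgeR adjusted p = 0.00257). Gene counts do not separate CREM isoforms. Of 11 AP-1 dimer partners 9 were tested, and 1 was called, fewer than that share: ATF2, which pairs with JUN, fell by 1.08 (edgeR adjusted p = 0.000517). Neither EGR corepressor (NAB1, NAB2) was called. RPS6KA1, an ERK-activated kinase, rose by 1.49 (edgeR adjusted p = 0.0128), a call lost in 6 of 14 alternative fits. The messenger level of a kinase does not measure its activity.

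Genes often driven by AP-1 or EGR moved in both directions in TR vehicle against PAR vehicle. Of 13 tested out of 21, 6 rose, 2 fell and 5 were not called, where 19.9% of all genes were called higher and 16% lower, with a median of 1.06 against 0.07 over all genes. The EGFR ligand AREG had a level of 23.5 ± 4.82 CPM in PAR, where TR vehicle had 0.233 ± 0.251 CPM. CD44, a hyaluronan receptor, rose by 2.60 (22.3 ± 3.31 to 135 ± 28.3 CPM, edgeR adjusted p = 8.34e-07). PLAU, the urokinase protease, had 1 count in PAR and 94 in TR vehicle, a ratio of 57.0 (95% counting interval 9.99 to 2275). AREG passed the filter only through PAR and PLAU only through TR, so that both had to differ, and their calls among these counts are not support. Of 11 heat shock genes tested, which share stress induction with immediate early genes, 5 rose and none fell, against 19.9% and 16% of all genes, with BAG3 at 1.51, HSP90AA1 at 1.19 and HSPH1 at 1.15 log2 units (edgeR adjusted p = 0.000211, 0.000743 and 0.00220).

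Within the resistant line, the other immediate early genes were called in 1 direction only. For the 6 libraries with erdafitinib against the 6 without, 5 of 31 fell and none rose, where 0.938% of all genes were called lower and 1.71% in either direction, with a median of −0.17 against −0.01 over all genes. CCN2, a matricellular protein, stood at 2.32 ± 0.404 and 1.70 ± 0.511 CPM in TR vehicle and TR 4-OHT. With erdafitinib it stood at 0.425 ± 0.197 (TR erdafitinib) and 0.205 ± 0.219 CPM (TR combination). It reached the minimum of the filter on low counts in 3, 3, 1 and 0 libraries of these groups. Within TR it thus passed mainly through libraries without erdafitinib, and its call among the 5 is not support. The CCN2 relative CCN1 fell by 0.83 log2 units (edgeR adjusted p = 0.0124) and BTG2 fell by 0.75 (edgeR adjusted p = 0.00327). KLF10, a TGF-beta-induced factor, fell by 0.52 (edgeR adjusted p = 0.0419), and ZFP36L1, which destabilises messenger RNA, fell by 0.37 (edgeR adjusted p = 0.0408). The KLF10 and ZFP36L1 calls were each lost in 11 of 12 fits that left out 1 library, while those of BTG2 and CCN1 were lost in 0 of 12. Of the 13 tested AP-1 and EGR target genes, 2 fell and none rose, beside the same shares of all genes. IVL, a squamous differentiation protein, fell by 2.22 (edgeR adjusted p = 0.00226). The other, PLAU, passed the filter only through libraries without erdafitinib, at 1.22 ± 0.209 and 0.836 ± 0.424 CPM in TR vehicle and TR 4-OHT and 0.307 ± 0.0625 and 0.327 ± 0.0962 CPM in TR erdafitinib and TR combination. In TR combination against TR 4-OHT alone, BTG2 fell by 0.87 (edgeR adjusted p = 0.0251) and IVL fell by 2.87 (edgeR adjusted p = 0.0101). CCN2 was also called lower there, under the same limit of the filter. Leaving out 1 library ended the BTG2 call in 6 of 6 fits, that of CCN2 in 5 of 6 and that of IVL in 3 of 6.

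Likeness to FOS and EGR1 over the 5 groups was measured as the root mean square difference between centred group means of log2 CPM, over the 10581 genes whose log2 CPM averaged 2 or more. Nearest to FOS were CRISP3 (0.697), IGF1R (0.927), TENM3 (0.980), ANGPT1 (1.05) and GNG11 (1.12). All 5 were high in PAR and low in the 4 TR groups, with a smaller gap than that of FOS. The nearest to EGR1 were HEXIM1 (0.0528), SCNN1A (0.0614), FRMD6 (0.0758), ZFX (0.0764) and BTBD8 (0.0782). Each of these had its lowest mean in PAR, and lower means with erdafitinib than in TR vehicle. With 5 group means and so many genes, close profiles are common, and these are a description with no test.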

How the data were processed

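RNA was measured in 15 libraries, 5 groups of 3, made with a stranded kit and sequenced in pairs, per the labels' protocols. The submitters' processing notes list HISAT2 2.1.0, the GRCh38 build and featureCounts 1.4.6-p1. The files as deposited hold raw read counts for each Ensembl gene, made by featureCounts 2.0.1 in paired, reverse-stranded mode on Ensembl 104, per the file headers. Exon lengths, as base counts in the deposited files, gave CPM per kb. Counts were analysed with edgeR 4.0.16 in R 4.3.3: filterByExpr on the groups (16210 genes tested), TMM scaling (factors 0.907 to 1.10), and 1 quasi-likelihood fit of all 15 libraries with a mean per group, no block and 10 residual degrees of freedom (common dispersion 0.095). Libraries of 1 group differed beyond counting error (chi-square per gene of 8.05 to 164). DESeq2 1.42.0 was an alternative, and scripts were tested on simulated data.

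The members and lists were chosen with earlier results of these data known. Named besides the members are the called genes with the 5 smallest p (other immediate early genes) or 3 smallest p (other lists) in TR vehicle against PAR vehicle, any listed gene called within TR, and the 5 genes most like FOS and EGR1. A result that this rule names is not reported here. Alternatives were other size factors, filters, groups in the fit, a replicate block, a within-group axis covariate and left-out libraries. Promoter sequences came from RefSeq (GRCh38.p14), gene type and GC content from GENCODE 29. Counting intervals of ratios and the floors cover counting error only, while the edgeR intervals include the spread between libraries.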

Additional observations from a re-analysis of the deposited data

How the results depend on the processing

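When each library was left out, 6 or 7 of the 9 tested genes were called in TR vehicle against PAR vehicle. Over all genes, 4695 to 6266 were called in the same fits. The 9 include FOS and EGR3, which had to differ, and EGR1, which passed the filter only through TR, so this count is not read as support. FOSB, FOSL2 and JUN kept their calls in all 14 alternatives. For IER2 pooled over erdafitinib, the call was lost without a filter (edgeR adjusted p = 0.155) and without the 2 shallowest libraries (edgeR adjusted p = 0.0676). What the replicate numbers mark is not given. Deviations of same-numbered libraries correlated from −0.83 to 0.77, and those of other-numbered libraries from −0.78 to 0.76. Much of the spread within groups lies on 1 axis (49.5%), so these correlations do not decide whether the numbers pair the samples. With the replicate block the IER2 call was lost (edgeR adjusted p = 0.0821), and 9 genes in place of 15 were called for erdafitinib alone. The block also ended the calls of BTG2 and CCN2 for the combination against 4-OHT and of ZFP36L1 pooled, and changed no other call of a named gene and no other count by over 1.5 times. For estimates that no setting called, the sign turned as follows, and the cause was not tested. In TR vehicle against PAR vehicle, without the 2 shallowest libraries, JUNB was 0.17 and JUND 0.058, and with 1 library left out they ran from −0.59 to 0.42 and from −0.98 to 0.060. Leaving out 1 library gave FOSB −0.11 to 0.36 and FOSL2 −0.15 to 0.064 for erdafitinib alone, FOS −0.20 to 3.33, FOSB −0.17 to 0.57 and JUNB −1.24 to 0.37 for the combination against 4-OHT, and FOSB −0.0096 to 0.36 pooled. For TR 4-OHT against TR vehicle, FOSB was −0.059 with the replicate block. JUN there was −0.0098 with no filter, −0.0010 with the CPM filter and −0.029 without the 2 shallowest libraries, where JUND was −0.17 and IER2 −0.037. Leaving out 1 library in that comparison gave FOS −2.81 to 0.73, FOSB −0.28 to 0.23, FOSL2 −0.057 to 0.16, JUN −0.13 to 0.069, JUND −0.17 to 0.87 and IER2 −0.092 to 0.15. For the combination against erdafitinib it gave FOS −0.20 to 0.54, FOSB −0.30 to 0.39, JUN −0.090 to 0.16, JUNB −0.31 to 1.99 and JUND −0.26 to 0.16. For the interaction, FOS was −0.21, FOSB −0.11 and JUND 0.14 without the 2 shallowest libraries, and leaving out 1 library gave FOS −0.44 to 3.09, FOSB −0.33 to 0.41, JUN −0.095 to 0.16, JUND −0.89 to 0.15 and EGR1 −0.25 to 0.12. Leaving out 1 library, an alternative chosen after seeing the data, moved the FOS ratio of PAR to TR 4-OHT to 192 to 2918 and to 277 to 472 for TR vehicle. The difference in JUND share ran from −1.55 to 13.1 percentage points, and without length scaling those of FOS and FOSB were −42.9 and −45.0.

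A covariate for the main axis of spread within groups, which by construction removes spread within groups, raised genes called to 8888 (TR vehicle against PAR vehicle, 5818 otherwise), 277 (erdafitinib alone), 746 (combination against 4-OHT, 104 otherwise), 17 (combination against erdafitinib) and 1715 (pooled, 278 otherwise). It called 1 of the 9 genes for the combination against 4-OHT and 2 pooled, JUN (edgeR adjusted p = 0.0245) and IER2. DESeq2 called 87, 288, 16, 580 and 1 genes for erdafitinib alone, combination against 4-OHT, combination against erdafitinib, pooled and interaction, and 1 of the 9 for the combination against 4-OHT. With only the groups compared, 3408, 0 and 65 genes were called for TR vehicle against PAR vehicle, erdafitinib alone and combination against 4-OHT, where fewer samples set the spread. No filter gave 26 for erdafitinib alone and 9 for combination against erdafitinib, and 0 of the 9 genes pooled, as did the replicate block and leaving out the 2 shallowest libraries. Leaving out 1 library gave 2 to 17 genes for erdafitinib alone, 45 to 63 for combination against 4-OHT and 140 to 445 pooled, with 0 to 1 of the 9 genes pooled. Depth limits FOS, FOSL1 and EGR3 in TR, where single libraries held few counts or none.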
